A study of Mus musculus with 12 samples.

Results

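The genes described here carry the unfolded protein response and the integrated stress response in the liver. They were chosen by name, as the rows of both count tables named Hspa5, Sdf2l1, Herpud1, Xbp1, Atf4, Ddit3, Atf3, Trib3, Chac1 or Asns. All 10 were listed in both tables, among 20093 genes that the tables share, and all 10 passed the filter on low counts in every comparison. Bulk RNA-seq was performed on livers of 12 male C57BL/6N mice, 3 in each of 4 groups, with 1 library per mouse. Per the labels, every mouse carried a floxed Elavl1 allele on both chromosomes, was 4 to 6 months old and was injected with an AAV8 vector. The livers labelled Tbg Cre positive, called HuRHep-/- here as in the study, came from mice given AAV8-Tbg-Cre, in which the hepatocyte promoter Tbg drives the recombinase. The control livers, called WT, came from mice given AAV8-Tbg-null. The study's methods describe another route, a cross with albumin-Cre mice that were younger. One pair of groups ate normal chow and the other ate HFCF for 16 weeks, a diet with 40 kcal% fat, 2% cholesterol and 20 kcal% fructose. Each diet has a count table of its own, so diet and table cannot be told apart.

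When unfolded proteins collect in the endoplasmic reticulum (ER), the chaperone encoded by Hspa5 is drawn away from the ER sensors, and the sensors become active. IRE1 then splices Xbp1 mRNA, ATF6 is cut to release a transcription factor, and both raise genes for chaperones and for ER-associated degradation. PERK and related kinases phosphorylate eIF2α, which lowers general translation and raises translation of Atf4 mRNA, whose product switches on genes of amino acid supply and, with CHOP, of cell death. Overloaded hepatocytes of fatty livers are a known setting for these pathways. The counts measure mRNA per gene. Splicing of Xbp1, phosphorylation of eIF2α and protein levels were not measured.

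Total counts per library ranged from 30071731 to 35949203, and between 10.4% and 12.9% of them lay on mitochondrial genes. Elavl1, which encodes HuR and is the targeted gene, went against the labels. On chow its counts were 938, 876 and 948 in the WT livers and 1475, 1265 and 1261 in the livers labelled HuRHep-/-. On HFCF they were 904, 791 and 849 in WT and 1299, 1242 and 1271 in HuRHep-/-. Elavl1 was thus higher in every library labelled HuRHep-/-, by 0.40 ± 0.05 (SE) on the log2 scale over both diets (limma, adjusted p = 0.000341). A count per gene does not separate deleted from kept exons, and directions drawn here rest on the labels. Were the labels of the genotypes exchanged, every genotype direction given here would turn. In these bulk samples fewer cells of a type and less RNA per cell cannot be told apart. Of 10 hepatocyte markers, 9 were listed in both tables, and their summed level ranged from 68527 to 128490 CPM (counts scaled to library size).

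Sequences before the transcription start are shown for 5 of the genes. Hspa5 and Herpud1 hold the letters of ER stress elements, Sdf2l1 went the other way from Hspa5 on chow, and Asns and Atf3 had the largest differences by diet. Whether an element bears on the direction of a gene was not tested. The sequences are from the RefSeq promoter table on GRCm38.p6, 150 bases up to the base before the start, and all 10 genes had 1 entry of 300 bases there. Capitals mark a match to a searched element in either strand.
Hspa5 (chr2:34771940-34772089, plus strand): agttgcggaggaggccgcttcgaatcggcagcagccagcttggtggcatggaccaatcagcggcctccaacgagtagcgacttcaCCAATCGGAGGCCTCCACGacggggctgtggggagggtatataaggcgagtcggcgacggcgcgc
Herpud1 (chr8:94386279-94386428, plus strand): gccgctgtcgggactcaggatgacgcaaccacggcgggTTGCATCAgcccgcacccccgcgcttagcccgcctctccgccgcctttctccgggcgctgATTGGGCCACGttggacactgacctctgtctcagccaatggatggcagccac
Sdf2l1 (chr16:17132384-17132533, minus strand): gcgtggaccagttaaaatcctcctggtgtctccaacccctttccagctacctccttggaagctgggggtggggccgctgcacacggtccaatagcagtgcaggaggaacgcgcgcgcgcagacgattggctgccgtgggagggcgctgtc
Asns (chr6:7693210-7693359, minus strand): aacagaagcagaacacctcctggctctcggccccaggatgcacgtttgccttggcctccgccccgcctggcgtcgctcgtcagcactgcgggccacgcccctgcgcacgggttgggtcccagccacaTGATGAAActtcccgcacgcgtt
Atf3 (chr1:191183334-191183483, minus strand): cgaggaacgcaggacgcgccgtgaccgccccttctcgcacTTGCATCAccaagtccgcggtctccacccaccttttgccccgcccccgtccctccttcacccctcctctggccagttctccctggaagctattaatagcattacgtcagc

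The ER stress response element ERSE, searched as CCAAT and CCACG set 9 bases apart, began at -65 in Hspa5 and was found in 0.119% of 32851 promoters of the same length. ERSE-II, searched as ATTGG and CCACG set 1 base apart, began at -52 in Herpud1 and was found in 0.0365% of promoters. The ATF4 and C/EBP element CARE, searched as TGATGNAA, was in 5 of the 10 genes, and 3.97% of all promoters held it. It began at -112 in Herpud1, -110 in Atf3, -193 in Chac1, -23 in Asns and 14 bases past the start in Trib3. The XBP1 element UPRE (TGACGTGG) and the cyclic AMP element CRE (TGACGTCA) were in 0 of the 10 windows, against 0.676% and 1.79% of promoters. The windows of Sdf2l1, Xbp1, Atf4 and Ddit3 held none of the 5 elements. A match is a string of letters, and binding was not measured. In the GENCODE annotation of GRCm38, the other genes span chr11:5520659-5525893 (Xbp1), chr15:80255184-80257541 (Atf4), chr10:127290774-127296288 (Ddit3), chr2:152337422-152344032 (Trib3) and chr2:119351229-119354381 (Chac1).

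Herpud1, Hspa5 and Xbp1, all of the ER branch, had the highest mRNA levels. Levels were set side by side as CPM per kb of exon, with libraries scaled by TMM factors over all 12. Herpud1 had group means of 125 to 188 CPM per kb, Hspa5 of 90.5 to 152, and Xbp1 of 56.2 to 88.1. Atf4 followed with 23.5 to 36.3 and Sdf2l1 with 21.9 to 35.97 CPM per kb. Trib3, Ddit3, Chac1, Atf3 and Asns lay between 0.216 and 7.59 CPM per kb. The ranges of neighbours overlapped between Herpud1 and Hspa5, between Atf4 and Sdf2l1, and among the last 5.

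**Figure D1:**
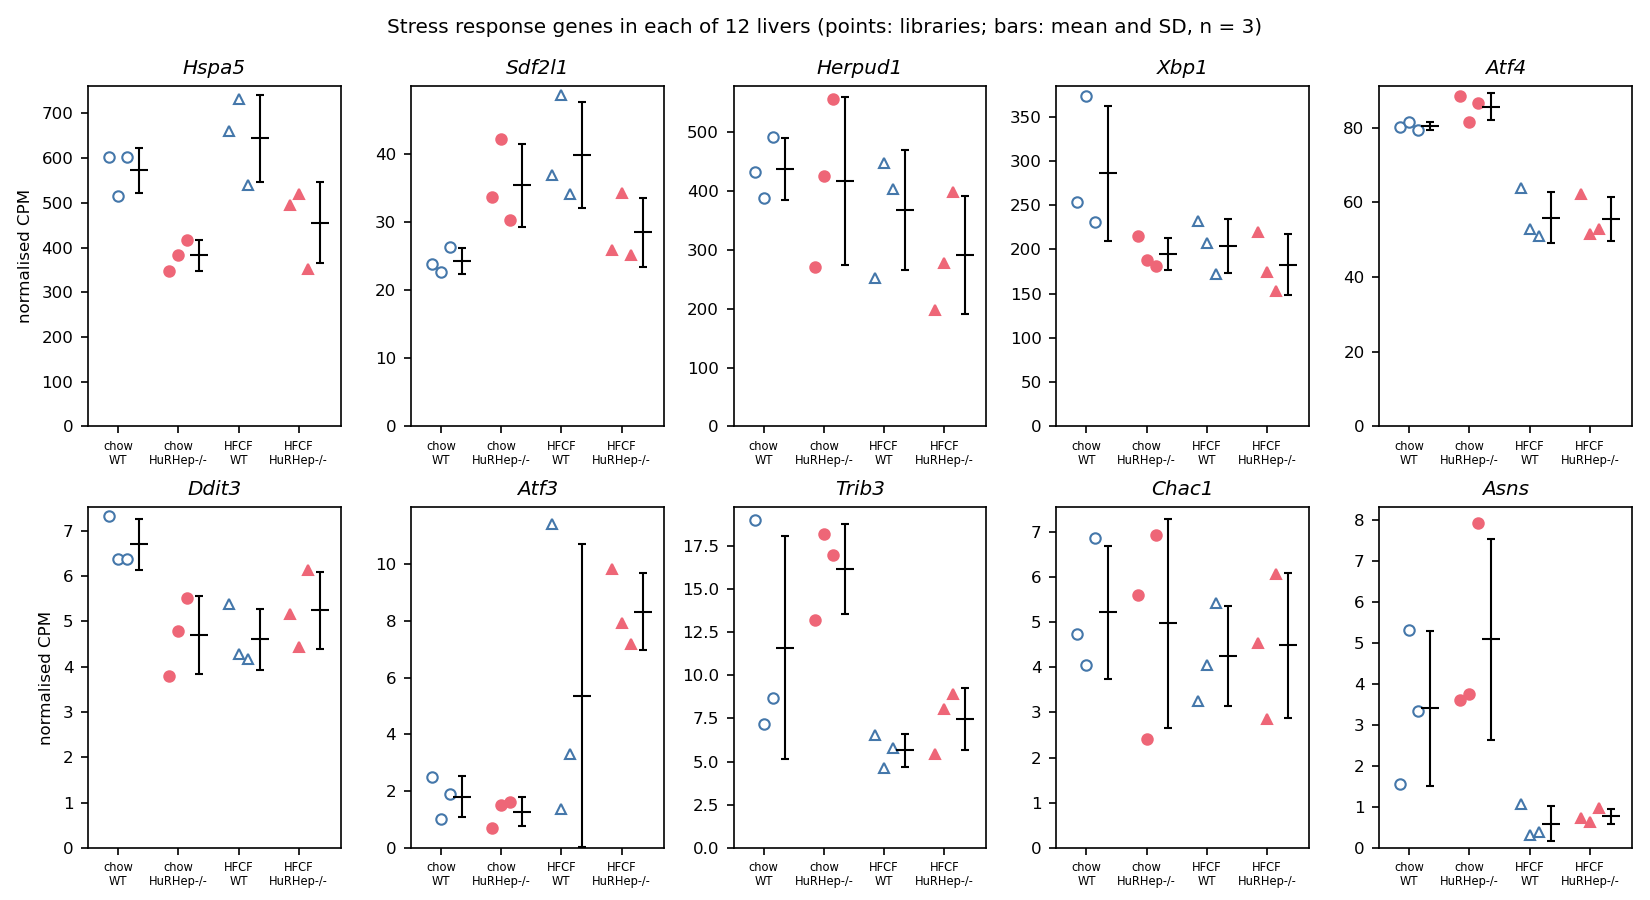
Normalised CPM (y axis, linear from 0) of each of the 10 genes in the 12 livers, by group (x axis). Open symbols are WT, filled symbols HuRHep-/-, circles chow and triangles HFCF, and the bar beside each group gives mean and SD of 3 livers. Hspa5 is lower in HuRHep-/- in each diet, while Asns and Atf4 are lower on HFCF in both genotypes.

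Genotype was compared within each diet and over both, to ask which stress genes differ in livers labelled HuRHep-/-. Hspa5, which encodes the major ER chaperone BiP, was the member that fell. Sdf2l1, a partner of the ER chaperone complex, was higher than WT on chow and lower on HFCF, with neither difference called. No member of the ATF4 branch was called. On chow 1 of 10 members was called (adjusted p of at most 0.05), all genes giving 4.21%. On HFCF 0 of 10 were called by limma or with voom weights and 2 with the replicate number as a block, Hspa5 and Sdf2l1 had an unadjusted p of 0.0195 and 0.0199, and all genes gave 6.84%. Over both diets 1 of 10 was called, beside 19.2% of all genes. Each of these shares rests on at most 1 gene, Hspa5. The median log2 difference of the 10 members was -0.14 on chow, 0.00 on HFCF and -0.02 over both, beside medians of 0.01, -0.0011 and 0.02 over all genes tested.

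Hspa5 stood at 602, 515 and 602 CPM in chow WT livers and at 348, 383 and 417 CPM in chow HuRHep-/- livers. On HFCF it stood at 660, 733 and 540 CPM in WT and at 495, 520 and 352 CPM in HuRHep-/-. The genotypes did not overlap in either diet, and the HFCF values were the more scattered. On chow Hspa5 fell by 0.58 ± 0.09 (SE) on the log2 scale, which is 1.49-fold (limma, adjusted p = 0.0219), and over both diets by 0.55 ± 0.11 (adjusted p = 0.00564). The HFCF difference of -0.52 ± 0.18 was of like size and missed the threshold (adjusted p = 0.106). The interaction of genotype with diet was 0.07 ± 0.21 (adjusted p = 0.907). With 3 livers against 3 the chow call was lost without WT replicate 1 or 3 or HuRHep-/- replicate 1 or 2 (adjusted p = 0.0769, 0.0775, 0.0721 and 0.103), the log2 difference lying between -0.65 and -0.52 over the 6 such fits, whereas over both diets it was called in 12 of 12. The hepatocyte marker sum was also lower by genotype on chow, at 104997 to 128490 CPM in WT and 84480 to 94206 CPM in HuRHep-/-. Of 9 hepatocyte markers tested on chow 0 were called, beside 4.21% of all genes. The part of this sum in the Hspa5 result was not tested.

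Sdf2l1 was measured at 23.9, 22.6 and 26.4 CPM in chow WT livers and at 33.7, 42.1 and 30.3 CPM in chow HuRHep-/- livers. On HFCF it was at 36.8, 48.7 and 34.1 CPM in WT and at 25.9, 34.3 and 25.2 CPM in HuRHep-/-. All 3 chow HuRHep-/- livers lay above chow WT, and on HFCF a single HuRHep-/- liver lay above the lowest WT liver. The genotype difference was 0.54 ± 0.13 on chow (limma, adjusted p = 0.0559) and -0.50 ± 0.17 on HFCF (adjusted p = 0.107). Without HuRHep-/- replicate 3 the chow difference was called, at 0.64 (adjusted p = 0.0385), and without HuRHep-/- replicate 2 it was 0.40 (adjusted p = 0.153). The change of the difference between the diets was -1.01 ± 0.23 with an unadjusted p of 0.000796 from limma, and it was not called (adjusted p = 0.127, and 0.0751 to 0.308 over the fits that each leave out 1 library). The interaction was called for 0 of 14535 genes by limma (0.0%), for 2083 at an unadjusted p under 0.05, and for 1 gene with voom weights.

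Herpud1 codes for an ER membrane protein of ER-associated degradation, and Xbp1 for the transcription factor made from IRE1-spliced mRNA. Xbp1 was at 254, 374 and 231 CPM in chow WT and 215, 188 and 181 CPM in chow HuRHep-/-, without overlap. Its difference was -0.52 ± 0.17 on chow (limma, adjusted p = 0.128), and between -0.66 and -0.31 when 1 library was left out. Over both diets it was -0.35 ± 0.13 (adjusted p = 0.0791). The latter was called without HFCF HuRHep-/- replicate 1 (-0.43, adjusted p = 0.0495) and with the replicate number as a block (adjusted p = 0.0395). It was at its smallest, -0.24, without chow WT replicate 2 (adjusted p = 0.129). On HFCF Xbp1 was at 232, 207 and 172 CPM in WT and 220, 175 and 153 CPM in HuRHep-/-, with overlap. Herpud1 ranged from 388 to 492 CPM in chow WT and from 271 to 556 CPM in chow HuRHep-/-, so that the genotypes overlapped. On HFCF it was at 252, 448 and 403 CPM in WT and 198, 278 and 398 CPM in HuRHep-/-, again with overlap. The differences of -0.12 ± 0.23 on chow and -0.37 ± 0.29 on HFCF were not called (limma, adjusted p = 0.804 and 0.429). When 1 library was left out, the HFCF difference lay between -0.62 and -0.12.

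Of the ATF4 branch, Atf4 itself differed little by genotype, at 80.3, 81.4 and 79.3 CPM in chow WT and 88.6, 81.6 and 86.5 CPM in chow HuRHep-/-. The log2 difference was 0.10 ± 0.06 on chow and -0.02 ± 0.11 on HFCF (limma, adjusted p = 0.36 and 0.905). Ddit3, which encodes the transcription factor CHOP, was at 7.34, 6.39 and 6.37 CPM in chow WT and 3.80, 4.80 and 5.51 CPM in chow HuRHep-/-. These values did not overlap, but the difference of -0.52 ± 0.16 was not called (adjusted p = 0.105). On HFCF the Ddit3 difference was 0.17 ± 0.17, and between 0.049 and 0.30 when 1 library was left out. The interaction of 0.71 ± 0.23 was not called (adjusted p = 0.232). In 8.31% of its words of 31 bases the Ddit3 transcript matched other annotated transcripts, most of them of a second Ddit3 entry, and its exons overlap Mars and Gm4189 on the opposite strand. Reads were aligned by strand.

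Trib3 encodes a pseudokinase that binds ATF4 and AKT. It was at 19.0, 7.16 and 8.66 CPM in chow WT and 13.2, 18.2 and 17.0 CPM in chow HuRHep-/-, with WT replicate 1 above all others. The difference was 0.60 ± 0.33 on chow (limma, adjusted p = 0.311) and 0.49 ± 0.22 over both diets (adjusted p = 0.137). Both were called without that library, at 1.02 (adjusted p = 0.0482) and 0.70 (adjusted p = 0.0131). Without WT replicate 2 they were 0.33 (adjusted p = 0.569) and 0.35 (adjusted p = 0.256). Asns, the enzyme that makes asparagine, differed by 0.61 ± 0.37 over both diets (adjusted p = 0.258), and by 0.37 to 0.88 when 1 library was left out. Chac1, which degrades glutathione, differed by -0.06 ± 0.27 (adjusted p = 0.896), and its groups overlapped in each comparison, between 4.05 and 6.86 CPM in chow WT, 2.41 and 6.92 CPM in chow HuRHep-/-, 3.25 and 5.43 CPM in HFCF WT and 2.85 and 6.06 CPM in HFCF HuRHep-/-. Atf3, a stress-induced transcription factor, differed by 0.32 ± 0.44 over both diets (adjusted p = 0.638). Groups did not overlap by genotype in 5 of 10 members on chow, against 29.3% of genes, and in 1 of 10 on HFCF, against 36.2%.

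**Figure D2:**
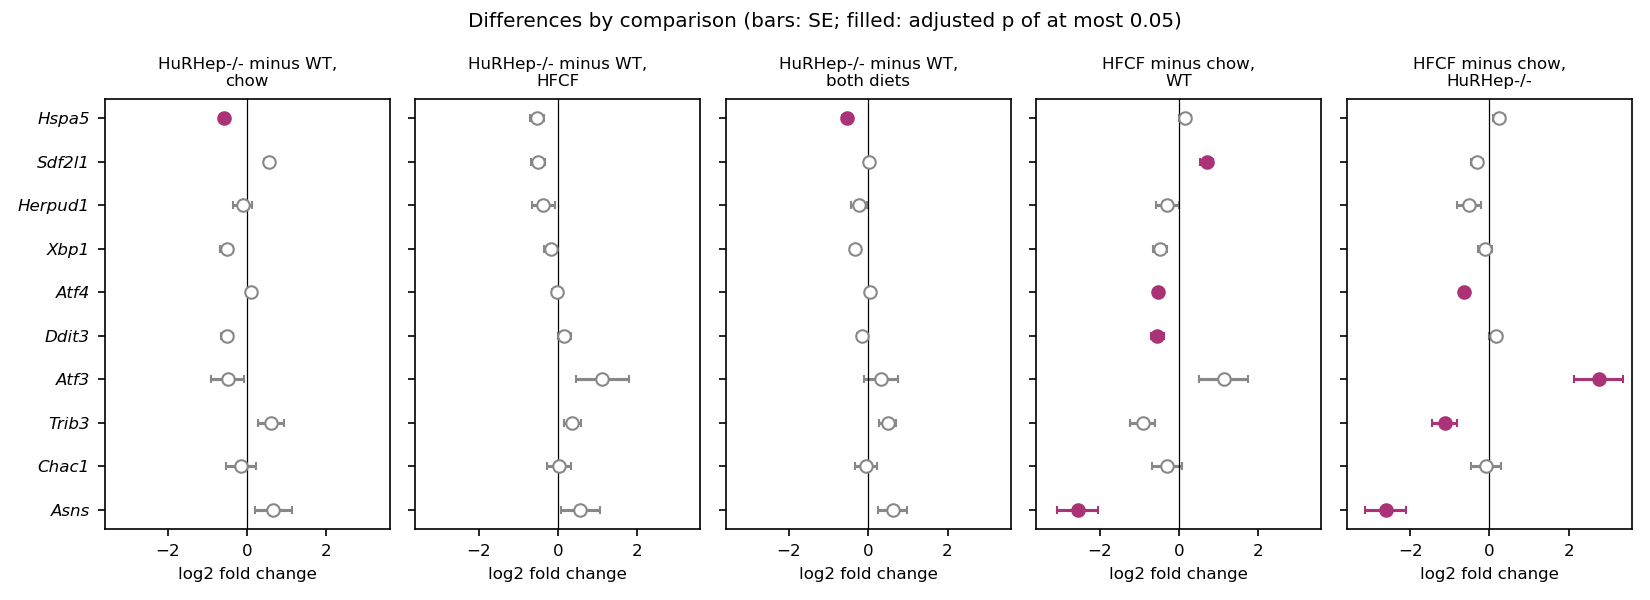
Log2 fold change (x axis) of each gene (y axis) in 5 comparisons, with SE bars from limma. Filled points had an adjusted p of at most 0.05, which on the genotype axis is true of Hspa5 alone, at -0.58 on chow and -0.55 over both diets.

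The other genes of the pathways were taken from 7 lists, chosen for their function with earlier results of these data known. Among 27 ER chaperones and folding enzymes, 10 fell and 1 rose in livers labelled HuRHep-/- over both diets, with a list median of -0.15, while 19.2% of all genes were called in either direction. Pdia4, a disulfide isomerase, fell by 0.85 ± 0.08 on the log2 scale (limma, adjusted p = 0.00013), from 154 ± 14.7 to 90.2 ± 3.13 CPM on chow and from 202 ± 29.3 to 106 ± 15.3 CPM on HFCF (SD, n = 3). Creld2, a folding factor induced by ER stress, fell by 0.61 ± 0.16 (adjusted p = 0.0205). Fkbp11, a prolyl isomerase of the secretory pathway, rose by 0.63 ± 0.10 (adjusted p = 0.00169). On chow 4 of the 27 fell and 0 rose, beside 4.21% of all genes called, among them Pdia4 (-0.76), Manf (-0.54), a secreted stress factor, and Hyou1 (-0.51), an exchange factor for BiP. On HFCF 3 fell, among them Pdia4 (-0.95) and Ero1lb (-0.69), an oxidase, and Fkbp11 rose, beside 6.84% of all genes called. With the replicate number as a block 11 of the 27 fell on HFCF and 1 rose. Leaving out 1 library at a time, between 7 and 12 of the 27 fell over both diets, but between 0 and 5 on chow and between 0 and 4 on HFCF. On chow 0 were called without HuRHep-/- replicate 2 and 1 without HuRHep-/- replicate 1 or WT replicate 1 or 3. On HFCF 0 were called without WT replicate 1 or HuRHep-/- replicate 1 or 2, 1 without HuRHep-/- replicate 3 and 2 without WT replicate 2. In ER-associated degradation 6 of 21 fell and 0 rose over both diets, among them Edem3 (-0.40), which trims glycans of misfolded proteins, and the ER lectin Erlec1 (-0.23). The list median was -0.05.

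Of 19 amino acid genes downstream of ATF4 that were tested, 5 rose and 1 fell over both diets, 31.6% called beside 19.2% of all genes, of which 1302 rose and 1484 fell. The list median was 0.18. Slc1a4, a transporter of neutral amino acids, rose by 1.04 ± 0.16 (limma, adjusted p = 0.00171) from a low level, 1.11 to 2.47 CPM on chow and 4.92 to 9.49 CPM on HFCF. Aldh18a1, of proline synthesis, rose by 1.01 ± 0.28 (adjusted p = 0.027), and Slc1a5 by 0.65 ± 0.16 (adjusted p = 0.0162). Of 18 ATF4 and CHOP genes, 2 rose, Sesn2 (0.64), an inhibitor of mTORC1, and the transcription factor Atf5 (0.59), and 2 fell. Among those that fell was Ppp1r15a (-0.25), which encodes the phosphatase subunit that reverses eIF2α phosphorylation. Lists can share genes, and Ppp1r15a is counted again among the sensors. Of 18 aminoacyl-tRNA synthetases, 2 rose, Lars (0.38) and Cars (0.29). Among 21 sensors and translational regulators 3 rose and 2 fell, and among 24 genes of ER entry and glycosylation 3 rose and 3 fell. The called shares of these 4 lists, 22.2%, 11.1%, 23.8% and 25.0% in the order given, stand beside the same 19.2%. Without 1 library the genes called over both diets numbered 4 to 7 in the amino acid list, 2 to 5 in the ATF4 and CHOP list, 1 to 3 among synthetases, 2 to 5 among sensors and 3 to 6 in ER entry. The ATF4 and CHOP count fell to 2 without chow HuRHep-/- replicate 2 alone, the synthetase count to 1 without replicate 2 of chow HuRHep-/-, HFCF HuRHep-/- or HFCF WT, and the sensor and ER entry counts to 3 or fewer without any of 8 and of 6 libraries.

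**Figure D3:**
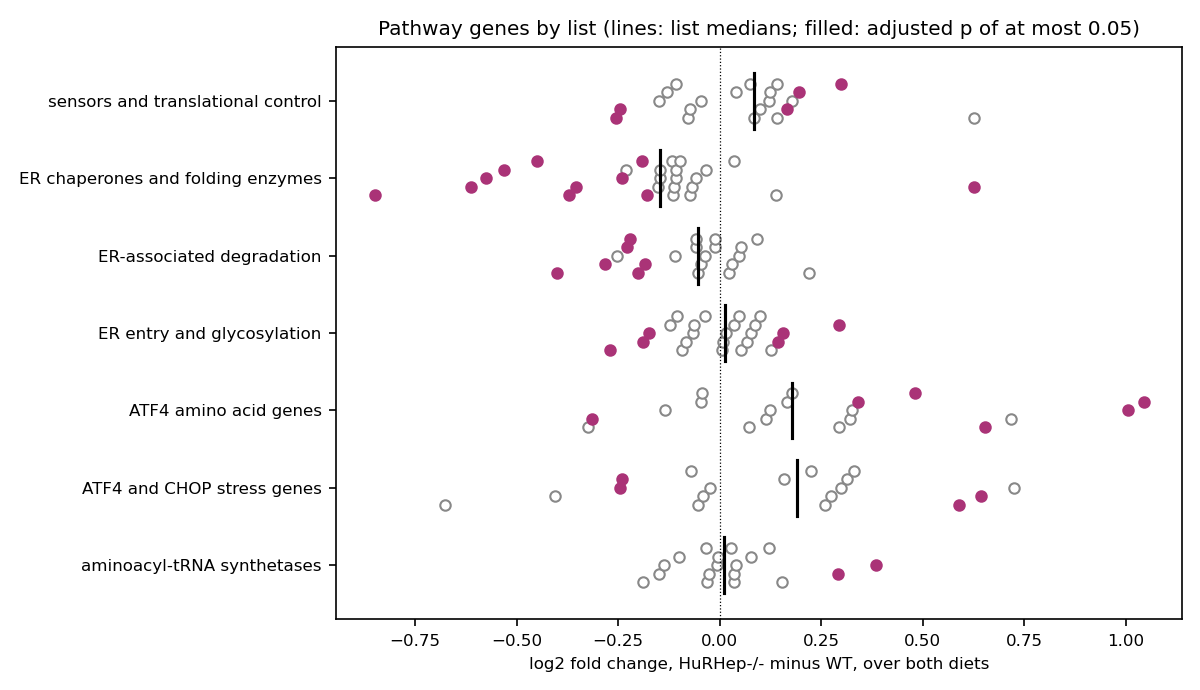
Log2 fold change by genotype over both diets (x axis) of each gene of 7 pathway lists (y axis). Lines are list medians, from -0.15 for ER chaperones to 0.19 for ATF4 and CHOP stress genes, and filled points had an adjusted p of at most 0.05.

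Markers of some other cells differed by genotype. All genes gave 19.2% called over both diets, 4.21% on chow and 6.84% on HFCF. Of 14 Kupffer cell and macrophage markers 7 rose and 0 fell over both diets. Their summed level was 201 to 248.9 CPM in chow WT, 274 to 383 CPM in chow HuRHep-/-, 304 to 546 CPM in HFCF WT and 539 to 724 CPM in HFCF HuRHep-/-. Stellate and fibroblast markers summed to 172 to 203, 137 to 219, 176 to 422 and 415 to 535 CPM in the same order, with overlap between genotypes in each diet, and none of the 9 passed the threshold over both diets. B and plasma cell markers summed to 152 to 190.5 CPM in WT and 190.6 to 223 CPM in HuRHep-/- on chow, and to 159 to 192 and 232 to 240 CPM on HFCF, and 1 of 9 tested rose over both diets. On HFCF the T and NK cell sum was 1.59 to 2.60 CPM in WT and 4.12 to 5.73 CPM in HuRHep-/-, and the neutrophil sum 2.23 to 3.34 and 4.33 to 5.58 CPM, although none of the T and NK cell or neutrophil markers passed the threshold on HFCF or over both diets. Of 5 cholangiocyte markers tested 2 rose over both diets and 2 on HFCF, where the 7 listed summed to 38.6 to 87.4 CPM in WT and 133 to 242 CPM in HuRHep-/-. Of 16 acute phase genes 7 rose and 1 fell in the fit over both diets, with Saa1 at 2.35, but 4 rose and 1 fell on chow, and 0 rose and 2 fell on HFCF. The part of these cells and of inflammation in the stress gene results was not tested.

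Diet was compared within each genotype, to ask how HFCF feeding bears on the same genes. By the calls, Asns and Atf4 fell in both genotypes, Ddit3 fell and Sdf2l1 rose in WT, and Trib3 fell and Atf3 rose in HuRHep-/-. A call in 1 genotype does not show a difference between genotypes, and the interaction was called for 0 of 10 members. For Trib3 the interaction was -0.21 ± 0.44 (limma, adjusted p = 0.868). In WT 4 of 10 members were called, beside 24.2% of all genes, and in HuRHep-/- 4 of 10, beside 38.9%, so the HuRHep-/- share is near the background. Groups did not overlap by diet in 5 of 10 members in WT and 4 of 10 in HuRHep-/-, against 37.6% and 54.6% of genes. Members had a median diet difference of -0.38 in WT and -0.21 in HuRHep-/-, beside 0.01 and 0.00 over all genes.

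Asns fell the most of the members by diet. Its level per kb was the lowest on HFCF, while on chow that of Atf3 was lower. It was at 1.55, 5.32 and 3.33 CPM in chow WT and 1.08, 0.305 and 0.381 CPM in HFCF WT. In HuRHep-/- it was at 3.59, 3.75 and 7.91 CPM on chow and 0.723, 0.622 and 0.970 CPM on HFCF. The HFCF livers lay below every chow liver of their genotype, and raw counts there were between 10 and 41. The fall was 2.55 ± 0.52 on the log2 scale in WT (limma, adjusted p = 0.00562) and 2.62 ± 0.52 in HuRHep-/- (adjusted p = 0.00283), and it was called in 12 of 12 fits that leave out 1 library.

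Atf4 was at 63.7, 52.9 and 51.1 CPM in HFCF WT and 62.3, 51.4 and 52.8 CPM in HFCF HuRHep-/-, below all 6 chow livers. It fell by 0.53 ± 0.09 in WT (limma, adjusted p = 0.00266) and by 0.63 ± 0.09 in HuRHep-/- (adjusted p = 0.000573), in 12 of 12 fits each. Trib3 was at 6.52, 4.64 and 5.78 CPM in HFCF WT and 5.44, 8.06 and 8.89 CPM in HFCF HuRHep-/-. It fell by 1.13 ± 0.31 in HuRHep-/- (limma, adjusted p = 0.0148), a call lost without HFCF HuRHep-/- replicate 1 (-0.92, adjusted p = 0.061). In WT its difference was -0.92 ± 0.31 (adjusted p = 0.052), which was called without chow WT replicate 2 (-1.20, adjusted p = 0.0196) or, through the shared spread, without HFCF HuRHep-/- replicate 1 (adjusted p = 0.0489). Without chow WT replicate 1 it was -0.49 (adjusted p = 0.165).

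Ddit3 was at 5.38, 4.27 and 4.16 CPM in HFCF WT, below the chow WT livers, and at 5.16, 4.43 and 6.14 CPM in HFCF HuRHep-/-. In WT it fell by 0.55 ± 0.17 (limma, adjusted p = 0.0337), and that call was lost without chow WT replicate 1, 2 or 3 or HFCF WT replicate 2 or 3 (adjusted p = 0.116, 0.0502, 0.0665, 0.0736 and 0.110). In HuRHep-/- its difference was 0.16 ± 0.17 (adjusted p = 0.466). Sdf2l1 rose by 0.70 ± 0.16 in WT (adjusted p = 0.00973), from 24.3 ± 1.94 to 39.9 ± 7.75 CPM (SD, n = 3), in 12 of 12 fits. In HuRHep-/- its difference was -0.31 ± 0.16 (adjusted p = 0.141), and between -0.46 and -0.18 when 1 library was left out.

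Atf3 was at 2.50, 1.04 and 1.90 CPM in chow WT, 0.696, 1.52 and 1.63 CPM in chow HuRHep-/-, and 9.82, 7.93 and 7.19 CPM in HFCF HuRHep-/-. The HFCF WT livers were apart from each other, at 11.4, 1.37 and 3.30 CPM. Atf3 rose by 2.77 ± 0.62 in HuRHep-/- (limma, adjusted p = 0.0052), which is 6.80-fold, in 12 of 12 fits. The WT difference was 1.13 ± 0.62 (adjusted p = 0.203), 1.84 without HFCF WT replicate 2 (adjusted p = 0.026) and 0.32 without HFCF WT replicate 1 (adjusted p = 0.67). The interaction was 1.64 ± 0.87 (adjusted p = 0.415), and between 0.92 and 2.44 when 1 library was left out. Among 17 immediate early and AP-1 genes tested in HuRHep-/-, 6 rose on HFCF and 0 fell, which at 35.3% is below the 38.9% of all genes, with Btg2 at 2.00, and the summed level of the 18 listed was 521 to 590 CPM on chow and 645 to 834 CPM on HFCF. Their part in the Atf3 result was not tested. Hspa5 differed by 0.16 ± 0.15 in WT and 0.24 ± 0.15 in HuRHep-/- (adjusted p = 0.464 and 0.236), the latter called without HFCF HuRHep-/- replicate 3 (0.40, adjusted p = 0.0389) and 0.13 without HFCF HuRHep-/- replicate 2 (adjusted p = 0.585). The WT difference of Hspa5 lay between 0.063 without HFCF WT replicate 2 and 0.28 without HFCF WT replicate 3. Xbp1, Herpud1 and Chac1 were not called by diet in either genotype, although with the replicate number as a block Xbp1 was called in WT and Herpud1 in HuRHep-/- (limma, adjusted p = 0.0385 and 0.042).

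**Figure D4:**
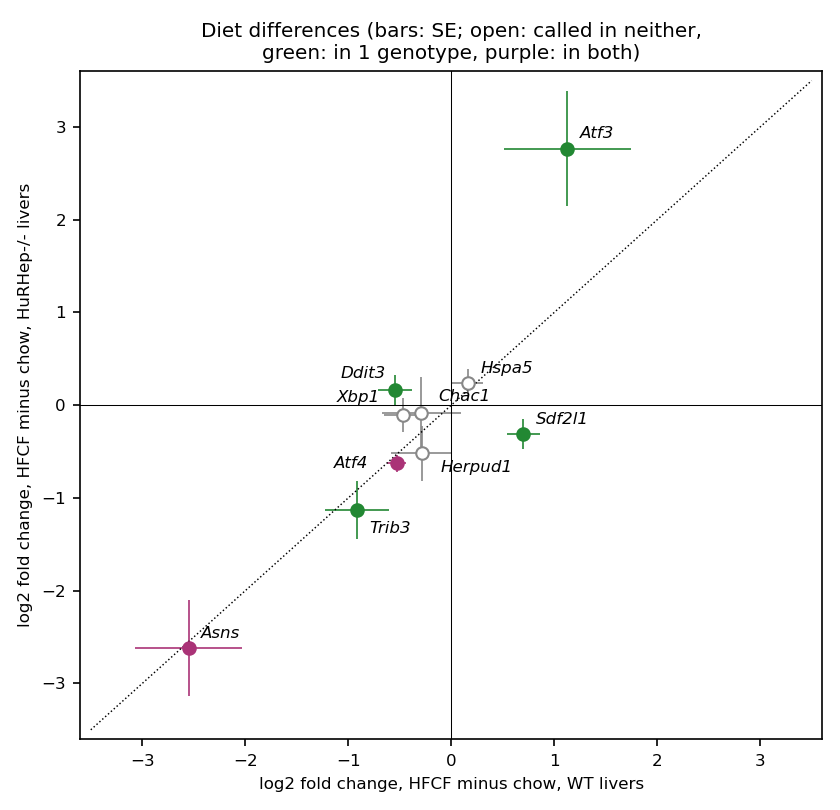
Log2 fold change of HFCF against chow in WT livers (x axis) and in HuRHep-/- livers (y axis) for the 10 genes, with SE bars and the line of equal change. Asns lies at -2.55 and -2.62 near the line, Atf3 above it at 1.13 and 2.77, and Sdf2l1 below it at 0.70 and -0.31.

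The other genes of the pathways are given beside the shares of all genes called by diet, 24.2% in WT and 38.9% in HuRHep-/-. Of 19 amino acid genes tested, 1 rose and 2 fell with diet in WT (15.8%), and 3 rose and 3 fell in HuRHep-/- (31.6%). Over the settings other than leaving out 1 library, 1 to 5 rose and 1 to 3 fell in HuRHep-/-. Slc1a4 rose by 2.11 ± 0.23 in WT and by 1.91 ± 0.23 in HuRHep-/- (limma, adjusted p = 0.000274 and 0.00027), while Cth, of cysteine synthesis, fell by 0.90 ± 0.13 in WT (adjusted p = 0.000988). Of 18 ATF4 and CHOP genes, 2 rose and 4 fell in WT (33.3%), with Fgf21, a hormone of the fasting liver, at 1.84 ± 0.35 (adjusted p = 0.00435). In HuRHep-/- 10 of the 18 rose and 5 fell (83.3%), led by Vldlr (2.79), a lipoprotein receptor, Tnfrsf10b (2.13), a death receptor, and Dusp8 (2.09). Over the settings other than leaving out 1 library, 7 to 10 of these genes rose and 2 to 5 fell in HuRHep-/-. In WT 2 to 5 rose and 3 to 4 fell. Of 27 ER chaperones 4 rose and 3 fell in WT (25.9%), and 2 rose and 9 fell in HuRHep-/- (40.7%), where upper-quartile factors gave 6 rises and 5 falls. In ER-associated degradation 3 of 21 rose and 1 fell in WT (19.0%; 6 and 1 with upper-quartile factors), and 0 rose and 10 fell in HuRHep-/- (47.6%), where upper-quartile factors gave 1 rise and 4 falls. In ER entry 1 of 24 rose and 2 fell in WT (12.5%; 5 and 1 with upper-quartile factors), and 1 rose and 7 fell in HuRHep-/- (33.3%), where upper-quartile factors gave 2 rises and 2 falls. Of 18 synthetases 2 rose and 2 fell in WT (22.2%; 3 and 1 with upper-quartile factors), and 1 rose and 3 fell in HuRHep-/- (22.2%), where upper-quartile factors gave 3 rises and 1 fall. Of 21 sensors 4 rose and 2 fell in WT (28.6%) and 6 rose and 8 fell in HuRHep-/- (66.7%), with Ern1, which encodes IRE1, lower in both (-0.64 and -0.63), and Creb3l1, an ER-bound transcription factor, higher (1.67 and 1.97). The hepatocyte marker sum was 104997 to 128490 CPM in chow WT and 73295 to 84555 CPM in HFCF WT, and 5 of 9 hepatocyte markers fell with diet in each genotype. Kupffer cell and macrophage markers rose in 7 of 14 in WT and 10 of 14 in HuRHep-/-, and stellate and fibroblast markers in 1 of 9 and 9 of 9. In HuRHep-/- 5 of 5 cholangiocyte and 4 of 7 T and NK cell markers also rose. Their part was not tested. Without 1 library the diet calls among chaperones in HuRHep-/- ran from 6 to 14 and were 7 without chow HuRHep-/- replicate 2 and 6 without HFCF HuRHep-/- replicate 1. Amino acid calls ran from 3 to 8 in HuRHep-/-, with 3 without chow replicate 3 or HFCF replicate 1 or 2 of that genotype, and from 3 to 5 in WT, with 5 without chow or HFCF WT replicate 2. ATF4 and CHOP calls in WT ran from 3 to 9, with 3 without chow WT replicate 1. In HuRHep-/- the calls ran from 4 to 10 in ER-associated degradation, with 4 without chow HuRHep-/- replicate 3 and 6 without any 1 of the 3 HFCF HuRHep-/- libraries. They ran from 4 to 9 in ER entry, with 4 or 5 without chow HuRHep-/- replicate 2 or 3 or any 1 HFCF HuRHep-/- library, and from 1 to 6 among synthetases, with 1 without chow HuRHep-/- replicate 3 and 2 without HFCF HuRHep-/- replicate 1 or 3. In WT they ran from 2 to 5 in ER-associated degradation, from 1 to 3 in ER entry and from 0 to 4 among synthetases, each at its lowest without chow WT replicate 1 or 3 or HFCF WT replicate 3. The lowest count was also reached without HFCF WT replicate 1 in ER entry and among synthetases, and without HFCF HuRHep-/- replicate 1 in ER entry.

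Within groups, Hspa5 varied most like Anks4b, Vcp and Traf4. After the 4 group means were subtracted, Pearson's r with Hspa5 over the 12 libraries was 0.98, 0.95 and 0.94 for these genes, the highest of 10207 genes with a mean of at least 100 counts, and Spearman's rho was 0.94, 0.94 and 0.85. Vcp encodes the ATPase that extracts ER proteins for degradation. Sdf2l1 reached an r of 0.55 with Hspa5 and Herpud1 one of -0.11. Trib3 varied most like Rtf2 (r = 0.95), Ndrg1 (0.93) and Bri3bp (0.91), and reached 0.52 with Atf3 and 0.51 with Ddit3. The libraries share depth and processing, and these coefficients are descriptions.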

How the data were processed

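Liver RNA of 12 mice was sequenced after library preparation with a stranded NEBNext kit, and RNA integrity numbers were above 6.0 per the labels. The authors aligned reads in CLC Genomics Workbench to RefSeq GRCm38.p6 on the reverse strand and deposited raw read counts per gene, without normalization, in a chow and an HFCF table of 20775 and 22709 genes. The counts are whole numbers written as text with commas. Since this format was not taken as a count unit, limma on the log scale was used and no count test.

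Counts were turned into log2 CPM with a pseudocount of 0.5 and TMM factors (trims of 0.3 and 0.05), recomputed in R. Genes entered with 10 counts in at least 3 libraries and 15 in all, so 13526 genes were tested on chow, 14295 on HFCF and 14535 across both tables. Fits used limma 3.58.1 in R 4.3.3 with a variance trend and two-sided tests. Genotype within a diet was fitted on 6 libraries, and diet, interaction and genotype over both diets on 12. P-values were adjusted by Benjamini-Hochberg over all genes, with calls at an adjusted p of at most 0.05, and fits were tested on simulated data. Differences are on the log2(CPM) scale with the pseudocount, which understates changes of low genes. An exact permutation test of 3 against 3 cannot give a p under 0.1. Replicates are mice labelled separately, and 0 pairs of libraries had identical counts. Same-numbered livers of the genotypes correlated by -0.03, 0.11 and -0.02 on chow and 0.10, 0.21 and 0.09 on HFCF after group means were removed, and the numbers were not used as pairs.

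The members and lists were chosen with earlier results of these data known. Named are all members, Elavl1, up to 3 called genes of each list per comparison with the largest change, and for Hspa5 and Trib3 the 3 genes most like them. Motifs were searched in both strands of the RefSeq promoter table. Alternatives were other factors, filters, pseudocount, voom weights, a fold limit, a replicate block, other samples in the fit and leaving out each library. One gene that this rule would name is not reported here. Python served for the other steps.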

Additional observations from a re-analysis of the deposited data

How the results depend on the processing

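Counts of calls moved with single libraries. Leaving out each library in turn, the number of genes called was 9 to 532 for genotype on chow, 30 to 1281 for genotype on HFCF, 1854 to 2949 for genotype over both diets, 1988 to 3965 for diet in WT, 4075 to 5965 for diet in HuRHep-/-, 0 to 40 for the interaction. The lowest counts came without HuRHep-/- replicate 2 on chow and HuRHep-/- replicate 1 on HFCF, and the 40 of the interaction without HFCF WT replicate 3. Of the 10 members, 0 to 2 were then called for genotype on chow, 1 to 2 for genotype over both diets and 3 to 5 for diet in WT. Without 1 library, 15 of 60 member differences changed sign, and 0 of them had been called. As log2 ranges over these fits, for genotype on chow they were Herpud1 -0.35 to 0.16, Chac1 -0.46 to 0.29. For genotype on HFCF they were Atf4 -0.11 to 0.087, Chac1 -0.22 to 0.32. For genotype over both diets they were Sdf2l1 -0.056 to 0.10, Atf4 -0.012 to 0.090, Atf3 -0.038 to 0.72, Chac1 -0.21 to 0.17. For diet in HuRHep-/- they were Xbp1 -0.25 to 0.010, Chac1 -0.54 to 0.22. For the interaction they were Hspa5 -0.047 to 0.24, Herpud1 -0.52 to 0.019, Trib3 -0.64 to 0.067, Chac1 -0.25 to 0.51, Asns -0.48 to 0.47. A fit of all 12 libraries called 961 genes for genotype on chow and 1615 on HFCF, and fits of only the 6 libraries of that genotype called 2060 for diet in WT. With a fold change of at least 1.5 as well, 310 genes were called for genotype on chow, 536 on HFCF, 801 over both diets, 1448 for diet in WT and 2856 in HuRHep-/-, and of the members 0, 0 and 0 for genotype and 2 for diet in WT, since Hspa5 changed 1.49-fold. Upper-quartile factors turned Atf4 for genotype on HFCF from -0.025 to 0.027, neither called. They gave 422 higher and 370 lower genes for genotype on HFCF against 414 and 564, 1966 and 1485 for diet in WT against 1649 and 1865, and 3403 and 1951 in HuRHep-/- against 2870 and 2780. The interaction was called for 1 gene with no filter and 1 with voom weights. The cause of these shifts was not tested.

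The replicate numbers were not shown to pair the mice, although on HFCF each liver correlated best with its own number. With the replicate block, 340 genes were called for genotype on chow against 570 without it, and 1341 on HFCF against 978. Of the members 2 were called on HFCF, Hspa5 (-0.52, limma, adjusted p = 0.0273) and Sdf2l1 (-0.50, adjusted p = 0.0232). Over both diets 2 were called, where Xbp1 was added (adjusted p = 0.0395). Xbp1 for diet in WT (adjusted p = 0.0385) and Herpud1 for diet in HuRHep-/- (adjusted p = 0.042) were also called under the block. In fits of 12 libraries the block also ties same-numbered livers across the diets. Those correlated by -0.14, 0.02 and 0.10 in WT and by 0.09, -0.0001 and -0.03 in HuRHep-/-. Depth limits Asns on HFCF most, at 10 to 41 counts per library.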

Other observations

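The ratio of Sdf2l1 to Hspa5, a pair of ER chaperone genes chosen after their values were seen, is given as a description. An exact permutation test of it cannot decide, with 3 livers against 3 and a pair chosen by its values. The log2 ratio of their CPM was -4.66, -4.51 and -4.51 in chow WT livers and -3.37, -3.19 and -3.78 in chow livers labelled HuRHep-/-, without overlap. On HFCF it was -4.16, -3.91 and -3.99 in WT and -4.26, -3.92 and -3.80 in HuRHep-/-, where the genotypes overlapped. The mean difference by genotype was 1.11 on chow and 0.03 on HFCF. By diet it was 0.54 in WT and -0.55 in HuRHep-/-, without overlap in either genotype. A ratio shows that the genes changed unequally, and not which of them changed.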
